A study of Mus musculus with 147 samples.

Results

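The insulin-like growth factor (IGF) system was examined in single renin cells of the mouse kidney, as 9 genes listed by symbol: the ligands *Igf1* and *Igf2*, the receptor *Igf1r*, and the binding proteins *Igfbp2*, *Igfbp3*, *Igfbp4*, *Igfbp5*, *Igfbp6* and *Igfbp7*. All 9 were found among the 35438 genes of the count tables. WT renin cells came from adult Ren1c+/+ Ren1c-YFP mice with an intact renin gene, and Renin-null cells from adult Ren1c-/- Ren1c-YFP mice, in which the renin gene is deleted. Both strains were C57BL/6 and carried a transgene that places YFP under the *Ren1c* regulatory region, so that YFP marks cells whose renin promoter is active whether or not renin is made. YFP-positive cells of the kidney cortex were sorted, captured on a Fluidigm C1 chip and profiled with full-length SMART-Seq v4 chemistry, as 51 wells of WT renin cells and 96 wells of Renin-null cells. The Renin-null wells were sequenced as 2 libraries of 48 wells each, YFP1 and YFP2. Per the study's methods, several mice were used per genotype, and the WT wells came from a single capture and the Renin-null wells from several. No label ties a well to a mouse or a capture, so these cannot serve as replicates here. Each genotype was therefore 1 sample, no test was run, and the effect of genotype cannot be told apart from that of capture or library. Reads carried no molecular identifiers, so the 95% intervals given below cover only the error of counting.

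IGF1 and IGF2 are secreted peptides that act through the IGF1 receptor, a tyrosine kinase that feeds the PI3K-AKT and RAS-MAPK pathways and promotes growth, survival and, in vascular smooth muscle, proliferation and migration. IGF binding proteins hold the ligands outside the cell, extend their life and limit or direct their access to the receptor, and proteases that cut the binding proteins release them again. IGFBP7 differs from the others in its low affinity for IGFs, and is a secreted protein of vessel walls that is also known as a urinary marker of kidney stress. Vascular smooth muscle cells are known both to make IGF1 and to respond to it.

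The WT wells held 197904443 counts together and the Renin-null wells 398812805. Single wells held 26401 to 17124854 counts in WT (median 1525972) and 3628 to 14505243 in Renin-null cells (median 4107951). Quality differed between genotypes: the 13 mitochondrially encoded genes took 60.4% of counts in the median WT well and 12.4% in the median Renin-null well. Only 15 WT and 57 Renin-null wells (28 in YFP1, 29 in YFP2) met limits of 100000 or more counts, 1000 or more genes and a mitochondrial share of 25% or less. Among the Renin-null wells, 4 pairs were near-identical across genes (Pearson r from 0.974 to 0.987, against 0.896 for the next pair of wells). Of these pairs, 3 joined wells of YFP1 and YFP2 and 1 lay within YFP2, so that 92 wells remain when each pair is counted once. The counts of a pair differed by more than sampling noise, and all wells were kept unless stated. Levels are given as counts per 1000000 counts (CPM), either in single wells or summed over the wells of a genotype.

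The targeted gene matched the labels. *Ren1* was between 563 and 313965 CPM in the 51 WT wells, with a median of 21402 CPM. It had 54 counts in all 96 Renin-null wells together, spread over 16 wells, with at most 17 counts and 12.5 CPM in a well. Smooth muscle markers such as *Acta2* and *Tagln* summed to 12641 CPM in WT and 13247 CPM in the Renin-null cells. *Rgs5*, a pericyte and renin cell gene, stood at 11102 CPM in WT and 14156 CPM in the Renin-null cells. *Akr1b7*, an established renin cell marker, stood at 4528 CPM and 2011 CPM.

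The genes lie on 6 chromosomes (GRCm38, GENCODE M21, whole-gene extent). *Igf1* spans chr10:87858265-87937042 on the plus strand and *Igf2* chr7:142650766-142666816 on the minus strand. *Igf1r* spans chr7:67952827-68233668 on the plus strand. *Igfbp2* (chr1:72824503-72852474, plus strand) and *Igfbp5* (chr1:72857932-72874884, minus strand) are neighbors that end toward each other. *Igfbp4* lies at chr11:99041244-99054392 on the plus strand, *Igfbp3* at chr11:7206086-7213923 on the minus strand, and *Igfbp6* at chr15:102144362-102149511 on the plus strand. *Igfbp7* spans chr5:77349240-77408041 on the minus strand. Its last 85 bases overlap the end of *Polr2b*, an RNA polymerase II subunit on the opposite strand, which held 49.0 CPM in WT and 156 CPM in the Renin-null cells. *Gm49394* overlaps *Igf2* on the same strand and had 0 counts in both genotypes. Use of strand in the counting is not given in the sources used here, so reads from such overlaps cannot be assigned with certainty.

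The 3 binding proteins with the most counts in Renin-null cells are transcribed from start regions of different make-up. The 100 bases before the RefSeq start of each (GRCm38.p6) are shown because these genes carry most of what follows. Each is read 5′ to 3′ on the gene's own strand, and capitals mark TATAAA or GGGCGG on either strand. The windows are chr11:99041144-99041243 for *Igfbp4*, chr1:72874866-72874965 for *Igfbp5* and chr5:77408046-77408145 for *Igfbp7*.
Igfbp4: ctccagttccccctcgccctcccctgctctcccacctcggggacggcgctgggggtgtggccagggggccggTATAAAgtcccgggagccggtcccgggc
Igfbp5: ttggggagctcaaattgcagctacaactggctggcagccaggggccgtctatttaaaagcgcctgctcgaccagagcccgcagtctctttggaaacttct
Igfbp7: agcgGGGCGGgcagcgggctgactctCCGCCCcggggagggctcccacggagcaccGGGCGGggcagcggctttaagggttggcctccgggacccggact
*Igfbp4* holds TATAAA, the letters of a TATA box, starting 28 bases before the start. *Igfbp7* holds GGGCGG, the letters of a GC box, 3 times here and 4 times in the 250 bases before its start, and no TATAAA. *Igfbp5* has neither in its 250 bases. Over 32851 promoter entries, TATAAA occurred in 12.4% and GGGCGG in 32.7% of such 250-base windows. The letters TGACGTCA, those of a full cAMP response element, occurred in 1.55% of all windows and in no window of a member. These letters were chosen after the sequences were seen, and a match is a description of the window only.

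The transcripts of the system in these cells were chiefly those of *Igfbp7*, *Igfbp5*, *Igf1*, *Igf1r* and, in Renin-null cells, *Igfbp4*. Per kilobase of transcript, the only scale on which genes can be set against each other, *Igfbp7* stood at 777 CPM per kb in Renin-null cells, *Igfbp5* at 110, *Igf1* at 50.5, *Igfbp4* at 26.8, *Igf1r* at 23.6, *Igf2* at 0.718 and *Igfbp3* at 0.0267. In WT renin cells the order was *Igfbp7* at 144 CPM per kb, *Igfbp5* at 79.8, *Igf1* at 45.4, *Igf1r* at 11.2, *Igfbp4* at 1.20 and *Igf2* at 0.300. In these sums, the first 2 places were the same in WT, YFP1 and YFP2. The middle of the order was not: *Igfbp4* stood at 5.06 CPM per kb in YFP1, below *Igf1r* at 16.0, and at 44.9 CPM per kb in YFP2, above both *Igf1r* at 30.0 and *Igf1* at 33.3. The order of sums need not hold in a typical well. Among WT wells within the quality limits, the median was 171 CPM for *Igfbp5* (6006 bases) and 18.0 CPM for *Igfbp7* (1158 bases), before division by length.

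**Figure D1:**
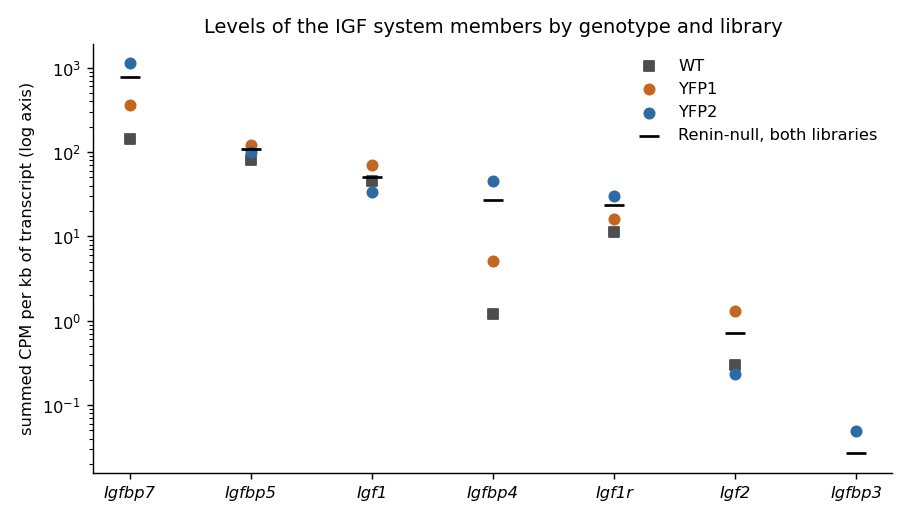
Summed level of each member per kb of transcript (CPM per kb, log axis) in WT renin cells (gray squares), in the Renin-null libraries YFP1 and YFP2 (orange and blue points) and in both together (black bars). *Igfbp7* and *Igfbp5* lead in every library, while *Igfbp4* ranges from 1.20 in WT to 44.9 CPM per kb in YFP2; members with 3 counts or fewer in Renin-null cells and values of 0 are not drawn.

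Of the 7 members with a ratio between genotypes, 5 were at least 2-fold higher in Renin-null cells, 0 were at least 2-fold lower, and *Igf1* and *Igfbp5* lay between. That count is close to the background, since 52.4% of the 18720 genes with a ratio were at least 2-fold higher in Renin-null cells and 18.5% at least 2-fold lower. The median log2 ratio of the members was 1.26, beside 1.17 over all genes, and 4 of the 7 lay above the all-gene median. As a family, the members thus lay near the background in summed CPM. On another scale, the difference of mean log2(CPM + 1) over wells, which is small by construction for genes near 0 in most wells, 4 of the 7 were at 1 or more, beside 9.03% of all genes, and 6 lay above the all-gene median of 0.13. *Igfbp4* (log2 ratio 4.49) and *Igfbp7* (2.43) exceeded the all-gene median by more than 1, by 3.31 and 1.26, and *Igfbp3*, at 0 counts in WT, has only a lower bound, 1.86. With TMM factors, the members at least 2-fold higher were 3, and the medians moved to 0.56 for the members and 0.47 for all genes.

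The share of wells with at least 10 CPM separated the members more. Of the 18720 genes with a ratio, 3.77% had a share at least 20 points higher in Renin-null than in WT wells, and 3 of the 7 members with a ratio did: *Igfbp7*, *Igf1r* and *Igfbp4*. A gene at 10 CPM in under 20% of Renin-null wells cannot show such a gap. The share over all genes is therefore low in part by construction, and was not matched for level. This limit of 20 points was set after the values were seen. *Igfbp4* lay just inside it at 21.3 points and *Igfbp5* just outside at 18.0 points. Of the 3, *Igfbp7* alone stayed past it under all 7 other limits and sets of wells that were tried, at 22.5 to 66.4 points. *Igf1r* fell to 10.5 points within the quality limits and to 9.87 points at a limit of 100 CPM. *Igfbp4* fell to 19.3 points with near-identical wells counted once, to 10.9 points in YFP1 and to 8.33 points at 100 CPM. The share of all genes past 20 points was not computed for these alternatives.

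**Figure D2:**
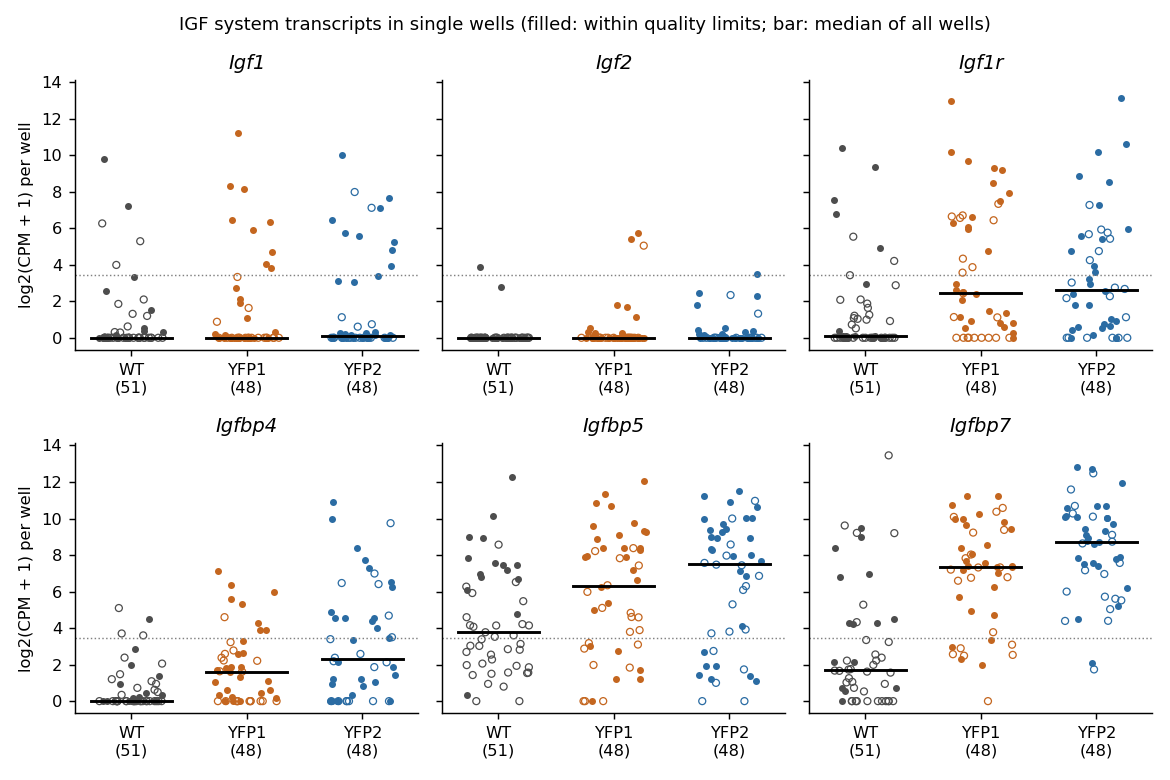
Level of 6 members in each well as log2(CPM + 1), by library (number of wells in parentheses). Filled points are wells within the quality limits, open points are the others, black bars are medians over all wells, and the dotted line marks 10 CPM. *Igfbp7* is above the line in 15 of 51 WT wells and 84 of 96 Renin-null wells, whereas *Igf1* and *Igf2* are near 0 in most wells of every library.

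*Igfbp7*, the low-affinity binding protein, had the most counts of any member in Renin-null cells. Its summed level was 167 CPM in WT (32955 counts) and 900 CPM in the Renin-null cells (358786 counts), a 5.40-fold difference and a log2 ratio of 2.43 (95% interval 2.42 to 2.45). In single WT wells it ranged from 0 to 11248 CPM with a median of 2.31 CPM, and in Renin-null wells from 0 to 7367 CPM with a median of 222 CPM. The ranges overlapped throughout, but most WT wells lay below most Renin-null wells. A count was found in 39 of 51 WT wells and 95 of 96 Renin-null wells, and at least 100 CPM in 9 and 68. In shallow wells 1 count can pass that level, as in YFP1 well 40, at 260 CPM.

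The highest WT value of *Igfbp7* came from 1 shallow well. WT well 16 held 5407 *Igfbp7* counts among 480713, at 11248 CPM and 53.1% mitochondrial counts, above every Renin-null well. It decided the mean over wells, which was 298 CPM in WT with it and 78.9 CPM without it, against 728 CPM in the Renin-null cells. The log2 ratio of those means was accordingly 1.29 with the well, which is below the all-gene median of 1.75 on that scale, and 3.21 without it, and that of the summed counts was 2.69 without it.

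The *Igfbp7* difference was present at each level of quality that was looked at. Among wells within the limits, 9 of 15 WT wells (95% interval 32.3% to 83.7%) and 52 of 57 Renin-null wells (91.2%, 80.7% to 97.1%) reached 10 CPM, with medians of 18.0 CPM and 369 CPM. Among wells over 25% mitochondrial counts, 5 of 34 WT wells and 29 of 36 Renin-null wells did. After thinning every well to 50000 counts, which left out 2 WT and 12 Renin-null wells, a count of *Igfbp7* remained in 16 of 49 WT wells (32.7%) and 70 of 84 Renin-null wells (83.3%), with a log2 ratio of 1.30 beside an all-gene median of 1.32. Both libraries lay above WT in summed level, but unequally: 418 CPM in YFP1 (log2 ratio 1.33) and 1302 CPM in YFP2 (2.97). The wells at 10 CPM or more were 38 of 48 in YFP1 and 46 of 48 in YFP2.

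*Igfbp4*, a binding protein that inhibits IGF action and is cut by the protease PAPP-A, had the largest ratio of the members. It summed to 2.73 CPM in WT (541 counts) and 61.3 CPM in the Renin-null cells (24432 counts), a 22.4-fold difference and a log2 ratio of 4.49 (4.36 to 4.61). WT wells ranged from 0 to 33.2 CPM with a median of 0 CPM, and Renin-null wells from 0 to 1904 CPM with a median of 2.61 CPM. A count was found in 22 of 51 WT wells and 70 of 96 Renin-null wells, but higher levels in a minority: 4 of 51 WT wells (7.84%, 95% interval 2.18% to 18.9%) and 28 of 96 Renin-null wells (29.2%, 20.3% to 39.3%) reached 10 CPM. At least 100 CPM was found in 0 WT and 8 Renin-null wells.

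A few wells held most of the *Igfbp4* counts. YFP2 well 14 alone held 12776 of them, 52.3% of the genotype's total, and YFP2 well 21 held 4253. Without the highest well of each genotype, the level in the Renin-null cells was 29.7 CPM and the log2 ratio 4.31. The libraries differed by far: 11.6 CPM in YFP1 (log2 ratio 2.08) and 103 CPM in YFP2 (5.23), with 9 and 19 wells at 10 CPM or more. Within the quality limits, 1 of 15 WT wells and 21 of 57 Renin-null wells reached 10 CPM. After thinning, a count remained in 3 of 49 WT wells and 26 of 84 Renin-null wells.

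*Igfbp5*, a binding protein that attaches to extracellular matrix, had a count in nearly all wells of both genotypes. It summed to 480 CPM in WT (94907 counts) and 658 CPM in the Renin-null cells (262323 counts), a log2 ratio of 0.46 (0.45 to 0.47) that lay 0.72 below the all-gene median. Single WT wells ranged from 0 to 4898 CPM with a median of 12.7 CPM, and Renin-null wells from 0 to 4236 CPM with a median of 139 CPM. A count was found in 49 of 51 WT wells and 90 of 96 Renin-null wells. WT well 5 held 58.2% of the WT counts, and YFP1 well 1 held 23.4% of the Renin-null counts. Without the highest well of each genotype, the levels were 213 CPM and 523 CPM, a log2 ratio of 1.30.

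The share of wells with *Igfbp5* went with well quality in WT. Over all wells, 28 of 51 WT wells (54.9%, 95% interval 40.3% to 68.9%) and 70 of 96 Renin-null wells (72.9%, 62.9% to 81.5%) reached 10 CPM. Within the quality limits the order was the opposite, 14 of 15 WT wells (93.3%, 68.1% to 99.8%) and 44 of 57 Renin-null wells (77.2%, 64.2% to 87.3%). The medians of those wells were nonetheless lower in WT, at 171 CPM against 313 CPM. At a limit of 100 CPM over all wells, the share was 27.6 points higher in Renin-null cells. In WT, 16 of 17 wells with at most 25% mitochondrial counts reached 10 CPM, but 12 of 34 wells above that share did. No direction between genotypes is therefore given for *Igfbp5*. YFP1 and YFP2 lay nearer to each other in its level than in that of *Igfbp4* or *Igfbp7*, at 726 CPM and 601 CPM.

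*Igfbp3*, the main IGF carrier of plasma, *Igfbp2* and *Igfbp6* were at or near 0. *Igfbp3* had 0 counts in WT and 22 in the Renin-null cells, 3.64-fold higher when the WT group is set to the floor of 3 counts, yet only 0.0552 CPM. Of these 22 counts, 20 lay in YFP2 well 14, the well with the most *Igfbp4*. *Igfbp2* had 1 count in a WT well and 0 in all Renin-null wells. *Igfbp6* had 0 counts in both, which allows up to 0.0152 CPM in WT and 0.00752 CPM in the Renin-null cells at 3 counts over each group.

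*Igf1r*, the receptor, was higher in sum and present in more Renin-null wells. It summed to 127 CPM in WT (25225 counts) and 269 CPM in the Renin-null cells (107412 counts), a log2 ratio of 1.08 (1.06 to 1.10), close to the all-gene median. WT wells ranged from 0 to 1356 CPM with a median of 0.0829 CPM, and Renin-null wells from 0 to 9019 CPM with a median of 4.75 CPM. At least 10 CPM was found in 7 of 51 WT wells (13.7%, 95% interval 5.70% to 26.3%) and 40 of 96 Renin-null wells (41.7%, 31.7% to 52.2%). These were 21 of 48 wells in YFP1 and 19 of 48 in YFP2.

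The summed level of *Igf1r* rested on few wells. WT well 28 held 15773 counts (62.5% of the WT total), and YFP2 well 39 held 49844 (46.4% of the Renin-null total) at 9019 CPM. YFP2 well 39 also held 6 of 6 podocyte markers, summing to 3005 CPM, and 6 of 8 endothelial markers, summing to 2009 CPM. YFP1 well 4 reached 8054 CPM of *Igf1r* with 329891 counts in all. Without the highest well of each genotype, the levels were 50.7 CPM and 146 CPM, a log2 ratio of 1.53. Within the quality limits, the shares at 10 CPM were 5 of 15 WT wells and 25 of 57 Renin-null wells, a gap of 10.5 points in place of 27.9 over all wells. Without the 12 WT and 67 Renin-null wells in which at least 50% of the markers of fibroblasts, endothelium, a tubule segment, collecting duct, podocytes or macrophages had a count, the order was the opposite, 219 CPM in WT and 77.3 CPM in the Renin-null cells. Only 7 WT and 6 Renin-null wells within the quality limits remained in that subset. Most of its *Igf1r* counts lay in WT well 28 for WT and, with 2657 counts, in YFP1 well 4 for the Renin-null cells. Both levels thus leaned on few wells, though WT well 44, also in the subset, held a further 5624 counts. The order without the highest well of each genotype was not computed for this subset.

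The ligands reached 10 CPM in few wells of both genotypes. *Igf1* summed to 63.2 CPM in WT (12501 counts) and 70.3 CPM in the Renin-null cells (28039 counts), a log2 ratio of 0.15 (0.12 to 0.19). A count was found in 19 of 51 WT wells (37.3%) and 43 of 96 Renin-null wells (44.8%). The median well was at 0 CPM in both, with a highest value of 883 CPM in WT well 14 and 2403 CPM in YFP1 well 11. At least 10 CPM was found in 5 of 51 WT wells (9.80%, 95% interval 3.26% to 21.4%) and 20 of 96 Renin-null wells (20.8%, 13.2% to 30.3%), with overlapping intervals. WT well 14 held 84.6% of all WT counts of *Igf1*, and YFP1 well 11 held 48.4% of those in Renin-null cells. Without these wells, 10.4 CPM were left in WT and 36.8 CPM in the Renin-null cells, a log2 ratio of 1.83. The direction of the summed level also differed between libraries, with 99.1 CPM in YFP1 (log2 ratio 0.65) and 46.3 CPM in YFP2 (-0.45).

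Low counts of *Igf1* in the WT library went with the sequencing indices. Among WT wells that shared an index with well 14, 13 of 15 had a count of *Igf1*, with a median of 3 counts, whereas 5 of 35 wells that shared none did. In the Renin-null libraries these numbers were 8 of 14 and 10 of 33 in YFP1, and 8 of 14 and 15 of 33 in YFP2. The limit of 10 CPM did not remove these low counts: of the 5 WT wells that reached it, WT wells 11, 12 and 15 held 6, 1 and 2 counts of *Igf1* in shallow libraries, and share an index with well 14. Other members showed a like pattern in WT around their own highest well. A count of *Igf1r* was found in 10 of 14 wells that shared an index and in 16 of 36 that did not. The median was 52.5 counts against 7.5 for *Igfbp5*, and 20.5 against 2.5 for *Igfbp7*. *Igfbp4* had a count in 2 of 6 wells that shared an index and in 19 of 44 that did not. The Renin-null libraries were mixed in this. In YFP2, *Igfbp5* had a median of 1773.5 counts in wells that shared an index with its highest well and 98 in the others, and *Igf1r* had a count in 14 of 14 against 24 of 33. In YFP1, the medians of *Igfbp7* were 414.5 and 125 counts, whereas those of *Igf1r* were 4.5 and 13 counts. The part of misassigned reads in these counts was not tested.

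*Igf2*, the fetal ligand, was scarce, with 220 counts (1.11 CPM) in WT and 1062 counts (2.66 CPM) in Renin-null cells. A count was found in 2 of 51 WT wells and 23 of 96 Renin-null wells. Only 1 WT well and 4 Renin-null wells reached 10 CPM, and the highest values were 13.8 CPM and 52.4 CPM. The log2 ratio of 1.26 (1.05 to 1.48) came from YFP1, at 4.82 CPM, while YFP2 at 0.865 CPM lay below WT (log2 ratio -0.36). WT well 10, with 10791 genes, held 76.8% of the WT counts. The ratio was 2.65 without the highest well of each genotype and 3.23 without wells of over 9000 genes.

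**Figure D3:**
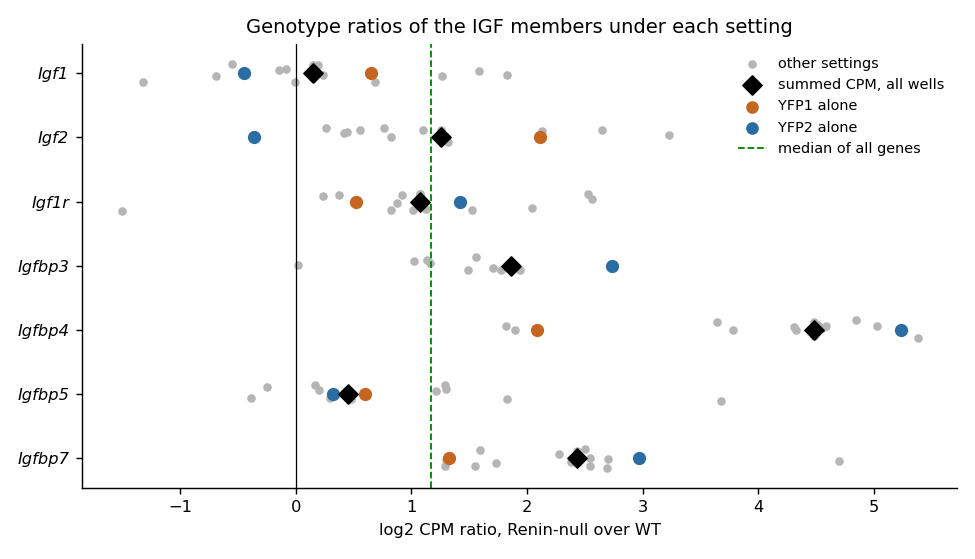
The log2 CPM ratio, Renin-null over WT, of the 7 members with a ratio, from summed counts of all wells (black diamonds), from YFP1 or YFP2 alone (orange and blue) and under the other settings (gray, among them the difference of mean log2(CPM + 1)), with the all-gene median of 1.17 dashed. *Igfbp4* and *Igfbp7* stay above 1 in each setting, from 1.82 to 5.38 and from 1.29 to 4.70, whereas *Igf1* and *Igfbp5* lie on both sides of 0, and so do *Igf2* and *Igf1r*. *Igfbp3* is a lower bound, since WT is at 0.

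Single wells combined the members in different ways. At 10 CPM or more, WT wells held a median of 1 member and Renin-null wells a median of 2.5. None was found at that level in 18 of 51 WT wells and 4 of 96 Renin-null wells. Within the quality limits, the medians were 2 and 3, and none was found in 0 of 15 WT and 1 of 57 Renin-null wells. *Igfbp5* and *Igfbp7* occurred together in 12 WT and 63 Renin-null wells. *Igfbp5* without *Igfbp7* was the commoner of the single patterns in WT (16 wells against 3), and *Igfbp7* without *Igfbp5* the commoner in Renin-null cells (21 wells against 7). Within the limits, *Igfbp5* alone and *Igfbp7* alone were found in 6 and 1 WT wells and in 3 and 11 Renin-null wells. *Igfbp4*, *Igfbp5* and *Igfbp7* were found together in 1 WT and 21 Renin-null wells, of which 6 belonged to YFP1 and 15 to YFP2. These 3 genes were chosen after their values were seen.

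*Igf1* and *Igf1r* both reached 10 CPM in 1 WT and 11 Renin-null wells, that is in 11 of the 20 Renin-null wells with *Igf1*, where *Igf1r* was at that level in 40 of all 96. Of the 40 Renin-null wells with *Igf1r*, 39 also held *Igfbp4*, *Igfbp5* or *Igfbp7*, as did all 20 with *Igf1*. These shares lay near that of all Renin-null wells, 91 of 96 of which (94.8%) held one of these binding proteins. In WT, 6 of 7 wells with *Igf1r* and 5 of 5 with *Igf1* held one, as did 32 of all 51. Across 54 Renin-null wells within the limits, near-identical wells counted once, the Spearman rho between any 2 of *Igf1*, *Igf2*, *Igf1r*, *Igfbp4*, *Igfbp5* and *Igfbp7* lay between -0.10 and 0.29. Such values across wells share libraries and depth and are descriptions only.

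The genes most alike to each member across those 54 wells were found among 11201 candidates by Spearman rho of CPM. For *Igfbp7* they were *Limch1* (0.66), *Ltbp4* (0.62), a matrix protein that binds latent TGF-β, and *Col1a1* (0.62), a chain of type I collagen. For *Igfbp5* they were *Sparcl1* (0.60), a secreted matrix-associated protein, *Crispld2* (0.55), a secreted protein, and *Gm15280* (0.55). *Igf1r* was most alike to *Pln* (0.61), the phospholamban of muscle, *Paip2* (0.58) and *2410131K14Rik* (0.57), and *Igfbp4* to *Rmnd1* (0.61), *Gjc1* (0.54), a connexin, and *Ogfrl1* (0.54). Those of *Igf1* (*Slc12a1*, *Acsf3*, *Ugt2a3*) and *Igf2* (*Gm47331*, *Ms4a7*, *Olfr715b*) had a count in only 19 to 28 of the wells, and *Igf1* and *Igf2* themselves followed the number of genes per well (rho 0.50 and 0.57).

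The genes alike to *Igfbp7* and *Igfbp5* did not share one direction between genotypes. *Col1a1* stood at 6.97 CPM in WT and 232 CPM in the Renin-null cells, and *Ltbp4* at 0.0202 CPM (4 counts) and 104 CPM. *Crispld2* had 0 counts in WT and stood at 401 CPM in the Renin-null cells. *Limch1* stood at 927 CPM and 449 CPM, and *Sparcl1* at 3511 CPM and 1417 CPM.

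Of the 8 marker lists of other kidney cells, 6 were highest in YFP2, as were *Igfbp7* and *Igfbp4*, and the loop and distal tubule and macrophage lists were highest in YFP1. Of 8 fibroblast markers, 7 had counts in each genotype, with *Dpt* at 0, and their sum was 174 CPM in WT, 442 CPM in YFP1 and 1774 CPM in YFP2. The most abundant was *Col1a2* in WT at 164 CPM and *Col3a1* in YFP2 at 899 CPM. The 6 podocyte markers summed to 98.8 CPM in WT, where *Podxl* was at 0, to 166 CPM in YFP1 and to 1033 CPM in YFP2. The 8 endothelial markers summed to 186 CPM in WT, where *Cdh5* and *Plvap* were at 0, to 46.3 CPM in YFP1 and to 513 CPM in YFP2. The 8 proximal tubule markers summed to 29.4 CPM in WT, where *Slc5a2* was at 0, to 283 CPM in YFP1 and to 377 CPM in YFP2. The loop and distal tubule list summed to 0.515 CPM in WT, where *Pvalb* and *Cldn16* were at 0, to 189 CPM in YFP1 and to 43.0 CPM in YFP2, and the collecting duct list to 33.7 CPM in WT, 7.57 CPM in YFP1 and 150 CPM in YFP2. The 8 macrophage markers summed to 1.48 CPM in WT, with 5 of them at 0, to 18.0 CPM in YFP1 and to 4.25 CPM in YFP2. The 5 mesangial markers were high in every library, at 2243 CPM in WT, 2346 CPM in YFP1 and 3512 CPM in YFP2. The part of other cells in the results was not tested.

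In single wells, the binding proteins and these markers met only in part. YFP2 well 41, with the most *Igfbp7* counts (72240, at 6703 CPM), and YFP2 well 9, at 7367 CPM, held 7890 CPM and 3790 CPM of fibroblast markers from 3 of the 8 genes. Both held more of the mesangial markers, at 14748 CPM and 5416 CPM, and also smooth muscle markers, at 5098 CPM and 5472 CPM. They differed in renin cell markers, at 24721 CPM in well 41 and 395 CPM in well 9. Podocyte markers summed to 350 CPM in well 41, from 3 of the 6 genes, and to 579 CPM in well 9, from all 6. YFP2 well 14, with the most *Igfbp4*, held 26951 CPM of renin cell markers, 17090 CPM of smooth muscle markers and 2016 CPM of fibroblast markers. YFP2 well 21, the next for *Igfbp4*, held 5930 CPM of proximal tubule markers. Across the 54 wells, *Igfbp7* had a rho of 0.38 with the renin cell list, 0.37 with the fibroblast list, 0.37 with the podocyte list, 0.32 with the mesangial list and 0.15 with the smooth muscle list. *Igfbp5* had its highest rho with the renin cell list, at 0.47, and *Igfbp4* with the loop and distal tubule list, at 0.27. The largest of these values were those of *Igf1* (0.57) and *Igf1r* (0.53) with the loop and distal tubule list.

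Without the wells in which at least 50% of the markers of any of those 8 lists but the mesangial one had a count, 39 WT and 29 Renin-null wells were left. The mesangial list was not used for this, since 40 of 51 WT and 85 of 96 Renin-null wells held at least that share of it. The summed level was then 102 CPM in WT and 299 CPM in the Renin-null cells for *Igfbp7*, and 1.46 CPM and 5.46 CPM for *Igfbp4*, log2 ratios of 1.55 and 1.90. *Igfbp5* stood at 122 CPM and 1559 CPM in this subset, and *Igf1* at 0.675 CPM and 0.270 CPM. Both Renin-null values rested on single wells. YFP1 well 1, with 61442 counts, held nearly all *Igfbp5* counts of the Renin-null wells left, and YFP1 well 10, with 10 counts, most of *Igf1*. No direction is therefore given for either gene in this subset. The all-gene median was -0.61 in this subset, and *Igfbp7* and *Igfbp4* lay 2.16 and 2.51 above it, against 1.26 and 3.31 over all wells. These levels, too, leaned on few wells. For *Igfbp7*, WT well 16 held 5407 counts and YFP1 well 1 held 5349, a large part of each genotype's counts in the subset. Counts of *Igfbp4* were few, with at most 46 in a WT well (well 40) and 80 in a Renin-null well (YFP1 well 47).

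**Figure D4:**
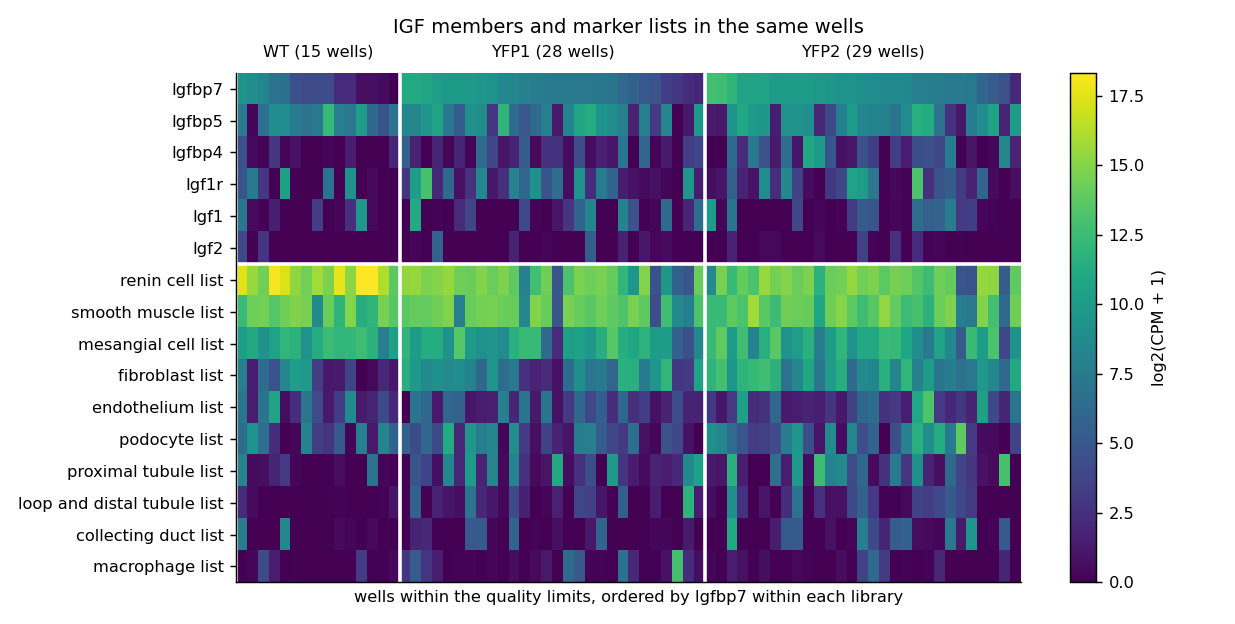
Level of 6 members (upper rows) and summed level of 10 marker lists (lower rows) as log2(CPM + 1) in the 15 WT, 28 YFP1 and 29 YFP2 wells within the quality limits, each column a well, ordered by *Igfbp7* within a library. *Igfbp7* is high across most YFP1 and YFP2 wells, *Igfbp5* across most wells of all 3 libraries, and *Igf1*, *Igf1r* and *Igfbp4* in scattered wells, while fibroblast markers are present in wells of high and of low *Igfbp7*.

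The rest of the pathway was taken from 8 lists of 70 genes, of which 68 were in the tables and 61 had a ratio. At least 2-fold higher in Renin-null cells were 35, at least 2-fold lower were 11 and between were 15, with a median log2 ratio of 1.25, beside 1.17 over all genes. These counts, too, lay near the background of 52.4% and 18.5%. In 16 of these genes, YFP1 and YFP2 lay on opposite sides of WT, and each library alone gave fewer higher genes, 24 in YFP1 and 29 in YFP2, where 45.7% and 49.8% of all genes were.

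Among the other receptors, *Igf2r*, which clears IGF2 and carries lysosomal enzymes, stood at 38.4 CPM in WT and 98.2 CPM in the Renin-null cells, in 9 and 32 wells at 10 CPM or more. The order of the shares was the opposite within the quality limits, 8 of 15 WT wells and 25 of 57 Renin-null wells, with medians of 23.7 CPM and 1.10 CPM. The insulin receptor *Insr* summed to 45.1 CPM and 184 CPM, but 83.8% of the Renin-null counts lay in 1 well. Without the highest well of each genotype, 36.1 CPM were left in WT and 30.5 CPM in the Renin-null cells, and the libraries lay on opposite sides of WT, at 385 CPM in YFP1 and 16.7 CPM in YFP2. It reached 10 CPM in 38 of 51 WT wells and 19 of 96 Renin-null wells. Within the quality limits these were 6 of 15 WT wells and 13 of 57 Renin-null wells, with medians of 3.58 CPM and 0.585 CPM. The insulin genes *Ins1* and *Ins2* had 0 counts in both genotypes, and *Igfbp1*, *Igfbpl1*, *Igfals* and *Igfn1* had at most 4 counts in a genotype.

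Of the proteases that cut IGF binding proteins and their inhibitors, 7 of 9 with a ratio were at least 2-fold higher in Renin-null cells and 0 lower, beside 52.4% and 18.5% of all genes. With one library, 3 were higher in YFP1 and 6 in YFP2. *Htra1*, a secreted serine protease that cuts IGFBP5, stood at 51.4 CPM in WT and 136 CPM in the Renin-null cells, with 5 and 22 wells at 10 CPM or more. WT well 3 held 83.6% of its WT counts. Without the highest well of each genotype, its levels were 8.95 CPM and 106 CPM. Its shares were near each other within the quality limits, 4 of 15 WT wells (26.7%) and 16 of 57 Renin-null wells (28.1%). *Ctsd*, the lysosomal protease cathepsin D, stood at 231 CPM and 299 CPM, and *Prss23* at 141 CPM and 121 CPM. Single wells held 70.4% of the WT counts of *Ctsd* and 51.4% of those of *Prss23*. Without the highest well of each genotype, *Ctsd* stood at 72.4 CPM and 195 CPM. The order of *Prss23* was then the opposite, 72.9 CPM and 86.3 CPM. *Pappa*, the protease of IGFBP4, was scarce, at 0.283 CPM and 7.95 CPM, and reached 10 CPM in 0 WT and 4 Renin-null wells. Its level was 0.0386 CPM in YFP1 and 14.6 CPM in YFP2, on opposite sides of WT.

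**Figure D5:**
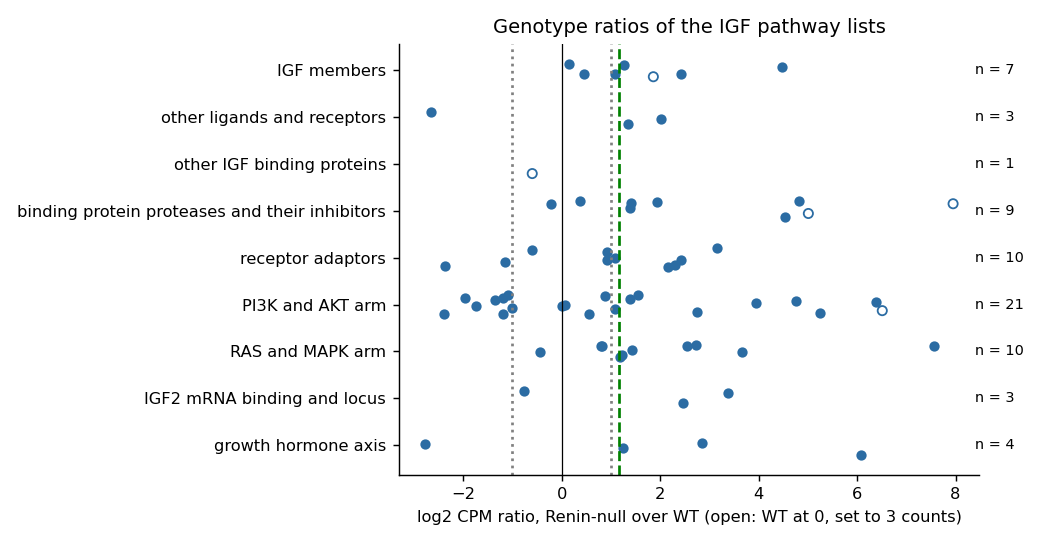
The log2 CPM ratio, Renin-null over WT, of the genes of each pathway list with a ratio, each point a gene (open where WT was at 0 and set to 3 counts), with dotted lines at 1 and -1 and the all-gene median of 1.17 dashed. The IGF members lie from 0.15 to 4.49, and genes of most lists lie on both sides of the all-gene median; of all genes, 52.4% were at least 2-fold higher and 18.5% at least 2-fold lower.

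Below the receptor, 9 of 21 genes of the PI3K and AKT arm were at least 2-fold higher and 7 at least 2-fold lower, beside 52.4% and 18.5% of all genes. The higher genes were 6 in YFP1 and 8 in YFP2. *Pik3r1*, a regulatory subunit of PI3K, stood at 29.7 CPM in WT and 200 CPM in the Renin-null cells and was higher in both libraries, with 92.2% of the WT counts in 1 well. *Akt1*, a kinase activated through PI3K, stood at 50.6 CPM and 13.0 CPM. *Eif4ebp1*, a translational repressor under mTOR, stood at 121 CPM and 47.5 CPM and was lower in both libraries.

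In the RAS and MAPK arm, 7 of 10 genes were at least 2-fold higher and 0 lower, beside 52.4% and 18.5% of all genes. The higher genes were 6 in YFP1 and 5 in YFP2, and 4 of the 10 lay on opposite sides of WT in the libraries. *Nras* had 15640 of the 197904443 counts in WT and 207894 of the 398812805 (521 CPM) in the Renin-null cells. It reached 10 CPM in 3 and 49 wells, and in 3 of 15 and 34 of 57 wells within the quality limits. *Map2k1*, the kinase MEK1, had 48 counts in WT, all in 1 well, and 18291 in Renin-null cells (45.9 CPM). Of the receptor adaptors, 5 of 10 were at least 2-fold higher and 2 lower, near the same background. The lower were *Irs2*, at 208 CPM and 94.2 CPM, and *Shc1*, at 221 CPM and 42.9 CPM, both in each library below WT. *Irs2* reached 10 CPM in 16 of 51 WT and 44 of 96 Renin-null wells, but within the quality limits in 10 of 15 WT wells (66.7%) and 26 of 57 Renin-null wells (45.6%), with medians of 128 CPM and 4.29 CPM. *Grb10*, an adaptor that restrains the receptor, stood at 13.8 CPM and 73.5 CPM, with 99.4% of the WT counts in 1 well.

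Of the growth hormone axis, which drives *Igf1* in liver, 3 of 4 genes were at least 2-fold higher and 1 lower, beside the same 52.4% and 18.5% of all genes. In YFP1 alone 1 was higher and in YFP2 alone 3, and 2 of the 4 lay on opposite sides of WT in the libraries. *Ghr*, the growth hormone receptor, stood at 2.12 CPM in WT and 143 CPM in the Renin-null cells, in 1 and 15 wells at 10 CPM or more, with 272 CPM in YFP1 and 34.7 CPM in YFP2. *Stat5a* was lower, at 36.5 CPM and 5.34 CPM, with 93.1% of the WT counts in 1 well. The *Igf2* mRNA binding protein *Igf2bp3* stood at 1.05 CPM and 11.0 CPM and reached 10 CPM in 0 WT and 7 Renin-null wells.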

How the data were processed

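Per the submitters' processing notes, reads were handled with FastQC 0.11.5, Trimmomatic 0.39 and Salmon 0.11.2 on GRCm38.p6. The authors summed transcripts to genes with the lengthScaledTPM argument of tximport and deposited expected counts for 35438 genes, not normalized for depth. That correction for gene length can shift the level of genes with several isoforms.

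The expected counts were rounded in each well, summed per genotype and scaled to CPM. A genotype at 0 was given a floor of 3 counts in all its wells together, and genes with 3 counts or fewer in both genotypes got no ratio. Ratios of at least 2-fold were counted. Intervals (95%) were exact Poisson for sums, exact conditional for ratios and Clopper-Pearson for shares of wells. Wells are not replicates, so no test was run. Lengths were the median of coding basic transcripts in GENCODE M21, and wells were numbered in each library as the labels order them. No doublet caller was run, and the labels' index names were used for shared indices.

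The members, gene lists and rules were chosen with earlier results of these data known. All members were named, and the pathway genes given with values came from fixed lists, most of them at 10 CPM or more in a genotype. *Pappa* and the genes with few counts were named for their role after their values were seen. Some genes of these lists are not reported here.

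Alternatives were other scalings (edgeR 4.0.16 TMM factors under R 4.3.3, median-of-ratios, no mitochondrial genes), other sets of wells, thinning to 50000 counts, filters, unrounded counts and means over wells. The ratio and its interval were tested on simulated data. Python 3.11.15, numpy 2.4.6, pandas 2.3.3, scipy 1.17.1 and matplotlib 3.10.9 were used.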

Additional observations from a re-analysis of the deposited data

How the results depend on the processing

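No label ties a well to a mouse or a capture, so these alternatives do not measure biological error. From 5 in the summed CPM, the members at least 2-fold higher in Renin-null cells became 3 with TMM factors, with median-of-ratios size factors, with only wells within the quality limits and with YFP1 alone, where 43.1%, 41.4%, 51.6% and 45.7% of all genes were, against 52.4%. They became 7 with the mean over wells and 6 without the highest well of each gene, beside 61.2% and 62.7% of all genes. The median log2 ratio, 1.26, was 0.56 with TMM factors, 0.42 with median-of-ratios size factors, 0.83 within the quality limits, 1.78 without wells of over 9000 genes, 2.16 without the highest well of each gene, 0.99 with YFP1 alone and 1.82 as the difference of mean log2(CPM + 1), where 4 members and 9.03% of all genes were at 1 or more and the all-gene median was 0.13. Of the alternatives chosen after seeing the data, wells within the limits with near-identical wells counted once gave 3 members and a median of 0.87, beside 51.8% of all genes and an all-gene median of 1.14. Leaving out wells with at least 50% of another cell type's markers, the mesangial list aside, gave 3 higher, 2 lower (*Igf1* and *Igf1r*) and a median of 1.55, beside 32.2% of all genes higher, 46.1% lower and an all-gene median of -0.61. Directions were reversed for *Igf2* with YFP2 alone (log2 ratio -0.36) and for *Igf1r* without wells holding other markers (-1.50). WT well 28 held most of the WT counts of *Igf1r* in that subset, and WT well 44 a further 5624. *Igf1*, near 0 in summed CPM, was at -0.55 with TMM factors, -0.68 with median-of-ratios, -0.01 without mitochondrial counts, -0.14 within the limits (-0.08 with near-identical wells counted once), -0.45 with YFP2 alone and -1.32 without wells holding other markers, and *Igfbp5* at -0.25 with TMM factors and -0.38 with median-of-ratios. The gap in wells with *Igfbp5* was -2.33 points at a limit of 1 count and -16.1 points within the quality limits. *Igfbp4* and *Igfbp7* kept a log2 ratio above 1 in all settings run, but *Igfbp7* lay below the all-gene median by 0.46 with the mean over wells and by 0.02 after thinning. The causes were not tested, and depth limits what can be said of *Igfbp2*, *Igfbp3* and *Igfbp6*. No paired analysis was possible because no label ties wells of the genotypes to a shared mouse or capture.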
